A study of Homo sapiens with 64 samples.

Results

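The mRNAs of 3 Notch receptors (NOTCH1, NOTCH2 and NOTCH3) and 2 Jagged ligands (JAG1 and JAG2) were followed through every count table of a study of FBL in human cell lines. The 5 genes were chosen by name, out of 25207 genes in the HEK293T table, 26364 in each of the C4-2 and immunoprecipitation tables and 31796 gene names in the SLAM-seq files. NOTCH3 was also chosen on a measured value: it differed between siFBL and siNOP56 in HEK293T cells at 0 h although neither siRNA targets it. Its 0 h values with these siRNAs in HEK293T cells, its difference between them at any hour and its slopes that rest on them are therefore given as a description, with no test.

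FBL (fibrillarin) is the enzyme that 2′-O-methylates RNA within the box C/D particle of the nucleolus, and NOP56 is a core protein of the same particle. Small interfering RNAs against FBL (siFBL) or NOP56 (siNOP56) were compared with a control siRNA (siCTRL). HEK293T is a line derived from embryonic kidney, and C4-2 is a prostate cancer line. HEK293T cells gave 24 RNA-seq libraries, 2 for each of the 3 siRNAs at 0, 6, 12 and 24 h. C4-2 cells gave 16 libraries, 2 for each of siCTRL and siFBL at 0, 3, 6 and 12 h. The labels name half-life of mRNA as the aim of the hours, and no label says how new transcription was stopped. FBL immunoprecipitation of RNA (RIP) from C4-2 cells that had received siCTRL gave 2 RIP and 2 input libraries. SLAM-seq reads labelled RNA by its T>C changes and gave 16 libraries of C4-2 cells, from siCTRL and siFBL at labelled hours 0, 6, 12 and 24, after labelling with 100 µM 4-thiouridine for 24 h and a chase in 10 mM uridine. A further 4 nanopore samples were not analysed here. Nothing in the labels says that replicates were separate cultures, so p-values measure the spread between these libraries, which may be technical.

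Notch receptors are single-pass membrane proteins that are cut when a ligand on a neighbouring cell binds and pulls on them. The cut frees the intracellular part, which enters the nucleus, joins the DNA-binding protein RBPJ and a Mastermind coactivator, and switches on genes such as HES1, HEY1 and NRARP. JAG1 and JAG2 are membrane ligands of the Jagged family. In kidney and prostate epithelium the pathway takes part in choosing cell fates during development.

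Because the time courses follow the loss of mRNAs, some stretches of the 3′ untranslated region (UTR) that hold AU-rich letters are shown first. ATTTA is the core of AU-rich elements, and ATTTATTTA is 2 overlapping copies of it. Both were searched on the transcript's own strand only, in the annotated 3′ UTR of 1 transcript per gene on GRCh38. The 5 UTRs are all on the minus strand, at chr9:136494433-136496070 for NOTCH1 (1638 bases), chr1:119911553-119915305 for NOTCH2 (3753 bases), chr19:15159038-15160661 for NOTCH3 (1624 bases), chr20:10637684-10639497 for JAG1 (1814 bases) and chr14:105140981-105142694 for JAG2 (1714 bases). Every ATTTATTTA copy is printed, and 1 ATTTA window for each gene without such a copy. Other ATTTA copies are not printed. Capitals mark the motif in each 30-base window.
NOTCH1, chr9:136495904-136495933: tttttttagtATTTATTTAtgtacttttat
NOTCH1, chr9:136495706-136495735: tataaatgccATTTATTTAttgattccttt
NOTCH2, chr1:119911570-119911599: acattcatacATTTATTTAtaaagtcagtg
NOTCH3, chr19:15160462-15160491: cagtcttcctttATTTAtaatgggtggggg
JAG1, chr20:10639131-10639160: gatcatagttttATTTAtATTTAttgactc
JAG2, chr14:105141343-105141372: ttttattcattcATTTAttcctttgttttg

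ATTTATTTA occurred 2 times in the NOTCH1 UTR and 1 time in the NOTCH2 UTR, and no copy was found in the other 3. Among genes whose UTR was between 0.8 and 1.25 times as long, 6.30% held it for the length of NOTCH1 and 14.1% for that of NOTCH2. ATTTA occurred 9 times in JAG1, 7 in NOTCH2, 6 in NOTCH1, 4 in NOTCH3 and 1 in JAG2. At these lengths 87.3 to 97.2% of UTRs hold at least 1 copy, so its presence sets none of the 5 apart. The median number of copies at like length was 8 for NOTCH2 and 3 for each of the others. JAG1, NOTCH1 and NOTCH3 lay above their median, and NOTCH2 and JAG2 below it. TGTANATA, the letters that Pumilio proteins bind, occurred 2 times in NOTCH2, 1 time each in NOTCH1, JAG1 and JAG2, and no copy was found in NOTCH3. For UTRs like that of NOTCH3, 29.3% hold it. A match is a run of letters and does not show that a protein binds there.

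Counts per library, in mega (M), were 15.96 to 19.88 M in HEK293T, 22.91 to 33.27 M in RIP and input, and 79.03 to 106.1 M in C4-2. SLAM-seq libraries held 14.31 to 60.31 M mapped reads. FBL stood at 302.9 to 485 CPM (counts per M counts of a library) with siCTRL, 316 to 573 with siNOP56 and 7.19 to 17.7 with siFBL in HEK293T cells, and at 265 to 388 with siCTRL and 0.601 to 3.63 with siFBL in C4-2 cells. NOP56 stood at 49.9 to 91.9 CPM with siNOP56 and 146 to 206 with siCTRL. CPM are scaled between libraries by trimmed-mean factors, except for the cell type markers, whose CPM are plain. In the C4-2 libraries 7 of 7 prostate markers were found at a mean of 1 CPM or more and summed to 5196 to 7779 CPM, against 4.46 to 44.4 in HEK293T, where KLK3 was at 0 throughout. The 4 HEK293T markers summed to 188 to 349 CPM there and to 1.13 to 5.47 in C4-2. Markers of leukocytes summed to at most 5.96 CPM and of endothelial cells to at most 14.0, while those of fibroblasts reached 59.1. The HEK293T fibroblast sum ran from 31.6 to 59.1 CPM with siCTRL, from 23.5 to 38.8 with siFBL and from 17.0 to 44.6 with siNOP56. The C4-2 endothelial sum ran from 4.39 to 9.46 CPM with siCTRL and from 6.30 to 14.0 with siFBL, and the part of either sum in the results was not tested.

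The 2 lines differed in which Notch mRNAs were abundant. Levels between genes are compared as CPM per kilobase of transcript, with siCTRL at 0 h (mean ± SD, n = 2). In HEK293T cells NOTCH2 was highest at 15.3 ± 0.0931, followed by JAG2 at 8.98 ± 0.147 and NOTCH3 at 8.54 ± 0.271, which lay within 2 SDs of each other. NOTCH1 stood at 3.23 ± 0.0789 and JAG1 was lowest at 0.643 ± 0.00188. In C4-2 cells the order was JAG2 at 20.9 ± 2.82, NOTCH3 at 12.96 ± 0.490, JAG1 at 9.32 ± 0.187, NOTCH2 at 7.70 ± 0.298 and NOTCH1 at 5.76 ± 0.185. JAG1 thus ranged from a trace transcript of 86 and 89 counts per library in HEK293T to 1 near the other members in C4-2. Reads of NOTCH2 and of its near-identical partial copies, the NOTCH2NL genes, cannot be told apart in these counts. In each course CPM are scaled by trimmed means, so a gene whose CPM increase over the hours rose relative to most mRNAs of its library. The scaling factors fell over the hours, in HEK293T siCTRL from 1.33 in both libraries of 0 h to 0.867 and 0.889 at 24 h. An increase in CPM is therefore not in itself a growing share of all counts, and less RNA per cell in general cannot be seen.

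**Figure D1:**
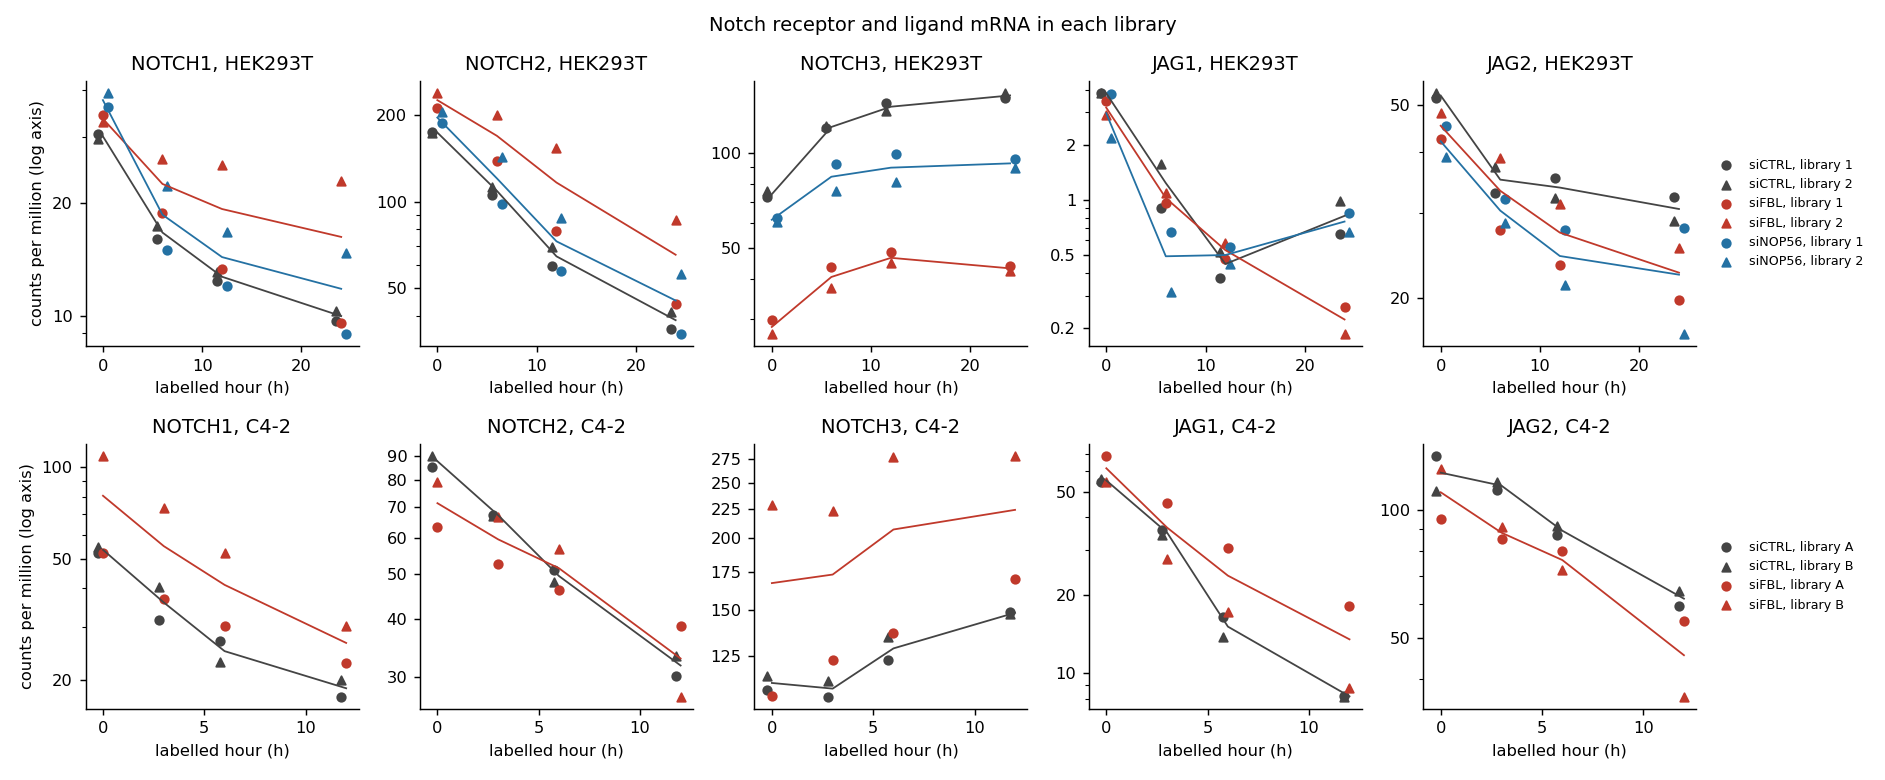
CPM (log axis) of the 5 members against hours, 1 panel per gene and line, with 1 point per library and a line through the mean of each siRNA. Points are moved slightly sideways to separate the siRNAs. In HEK293T the siFBL points of NOTCH3 lie below 50 CPM while the siCTRL points run from 72.4 to 154, and in C4-2 the NOTCH3 points of siFBL library B lie above all others.

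NOTCH3 is the receptor with the most restricted expression of the 3, best known in vascular smooth muscle. In HEK293T cells at 0 h it stood at 72.4 and 75.7 CPM in the siCTRL libraries, at 29.6 and 26.8 with siFBL, and at 62.4 and 60.6 with siNOP56. The siFBL libraries were the lowest, and the 3 siRNAs did not overlap. As a description of the values that chose the gene, siFBL minus siNOP56 was −1.12 on the log2 scale (SE 0.133), which is 2.18-fold lower. In that contrast 0.0201% of genes were called, meaning a Benjamini-Hochberg adjusted p under 0.05 in edgeR's quasi-likelihood test. The other 4 members lay between −0.16 (NOTCH1) and 0.20 (NOTCH2) there. Against siCTRL, which shares these libraries, NOTCH3 lay at −1.39 (SE 0.134) with siFBL and at −0.27 (SE 0.131) with siNOP56.

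At 6, 12 and 24 h NOTCH3 was also lower with siFBL in HEK293T cells. These libraries did not enter the choice, but they are not independent of it, since same-numbered siFBL libraries of 0 h and of the later hours deviated together. The siCTRL libraries held 120 and 122 CPM at 6 h, 144 and 136 at 12 h and 149 and 154 at 24 h. The siFBL libraries held 43.6 and 37.6, 48.5 and 44.8, and 43.9 and 42.5 at the same hours. The siFBL libraries lay below the siCTRL libraries at every hour, with no overlap. Averaged over these hours the difference was −1.66 (SE 0.0777, edgeR adjusted p = 1.14e-09), or 3.15-fold lower, and it stayed called when any 1 of the 24 libraries was left out.

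Within siFBL and within siNOP56, libraries with the same number deviated from their group means together from hour to hour (r = 0.626 to 0.694 and 0.439 to 0.601 across genes). The hours are then not independent, and the same contrast on counts summed per library number, an analysis added after seeing the data, gave −1.66 for NOTCH3 with an edgeR adjusted p of 0.0524. Of all genes, 39.7% were called at the later hours, and 4 genes with summed counts.

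With siNOP56 NOTCH3 was lower by less. Its libraries held 92.3 and 75.9 CPM at 6 h, 98.9 and 80.8 at 12 h and 95.8 and 89.5 at 24 h, all below the siCTRL and above the siFBL libraries of the same hour. The difference from siCTRL over the later hours was −0.62 (SE 0.0757, edgeR adjusted p = 5.82e-05), where 27% of genes were called, and the adjusted p was 0.251 with summed counts. As a description, since this is the contrast of the choice, siFBL minus siNOP56 was −1.03 on the log2 scale at these hours (SE 0.0767).

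In C4-2 cells NOTCH3 did not stand lower with siFBL. At 0 h the siCTRL libraries held 109 and 115 CPM, siFBL library A held 106 and siFBL library B 228. The labels do not tie the C4-2 columns to single samples, so the 2 libraries of a group are called A and B. Library A lay just under both siCTRL libraries and library B far above them, and the difference of 0.58 (SE 0.350, edgeR adjusted p = 0.323) was not called. Without library B it was −0.081. Of all genes 8.48% were called there.

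At later hours the siCTRL libraries of C4-2 ran from 106 to 149 CPM. Library A of siFBL held 123, 137 and 170 at 3, 6 and 12 h, and library B held 223, 277 and 278. Both lay above the siCTRL libraries of the same hour, library A by little. The difference was 0.65 (SE 0.202, edgeR adjusted p = 0.0217), where 34.6% of genes were called. The call was lost on leaving out siFBL library B of 3, 6 or 12 h or siCTRL library A of 6 h, and with summed counts (adjusted p = 0.157).

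The estimated effect of siFBL on NOTCH3 at later hours had opposite signs in the 2 lines, and the difference was tested in 1 model of both courses. That test asks whether the effects differ, and not whether the effect in C4-2 is positive. Over the later hours siFBL minus siCTRL was 2.45 higher in C4-2 than in HEK293T (SE 0.293, edgeR adjusted p = 6.79e-07), a 5.45-fold difference in the ratios. It stayed called in each of the 24 fits that left out 1 siFBL or siCTRL library (2.08 to 2.58), but some of these libraries do not enter the contrast. With summed counts it was 2.41 (adjusted p = 0.0081). At 0 h, where the HEK293T libraries are those of the choice, it lay at 2.17 (SE 0.414), where 7.49% of genes were called. Of all genes 26.8% were called in the later-hour comparison, and no other member was: JAG1 lay at 0.90 (edgeR adjusted p = 0.111), NOTCH2 at −0.49 (0.218), NOTCH1 at 0.32 (0.608) and JAG2 at 0.06 (0.923). The lines also differ in the length of their courses (12 h and 24 h), their depth and their tables.

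**Figure D2:**
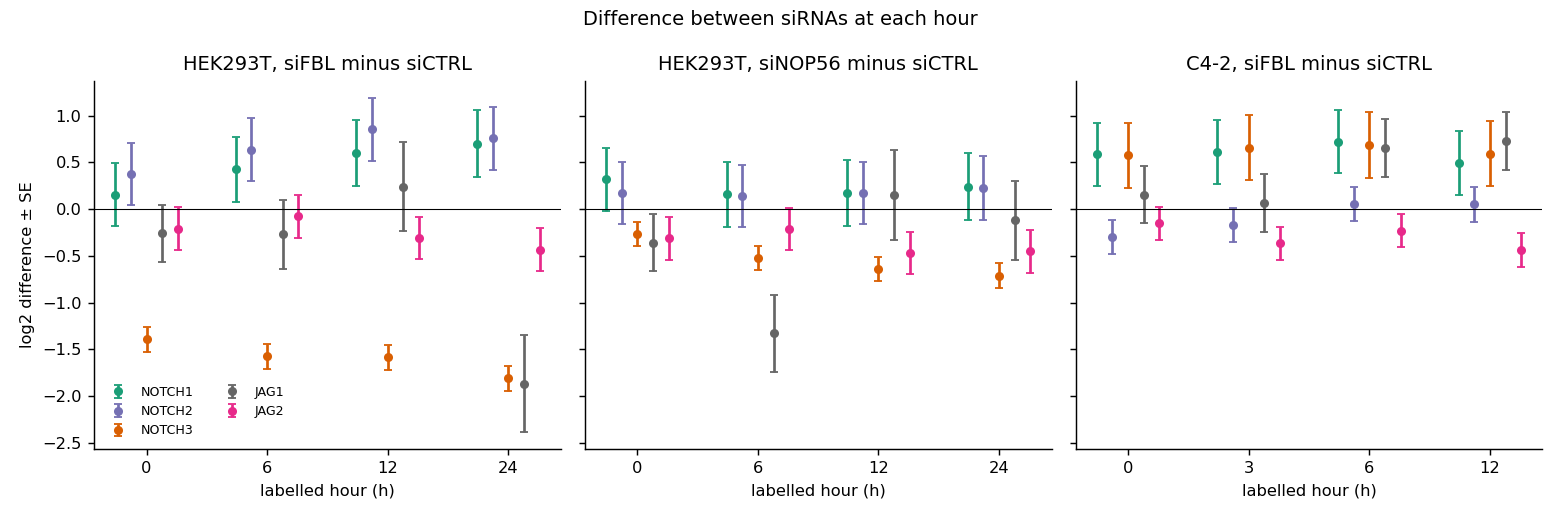
Log2 difference from siCTRL at each hour for the 5 members, by line and siRNA, with bars of 1 SE from the edgeR fit and a horizontal line at no difference. NOTCH3 lies below the line at each hour with siFBL in HEK293T and above it at each hour in C4-2.

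NOTCH1, the most widely studied receptor of the family, was higher with siFBL in both lines at later hours, with 1 of the 2 siFBL libraries well above the other in each line. In HEK293T cells it stood at 30.6 and 29.6 CPM with siCTRL at 0 h and at 34.2 and 32.8 with siFBL (log2 difference 0.16, SE 0.340, edgeR adjusted p = 0.851). At 24 h the siCTRL libraries held 9.68 and 10.3 CPM and the siFBL libraries 9.59 and 22.9. Library 2 lay well above siCTRL and library 1 level with it. Over the later hours the difference was 0.58 (SE 0.204, edgeR adjusted p = 0.0336).

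That NOTCH1 call was lost in 9 of the 24 fits that left out 1 library: without 1 of the 6 siCTRL libraries of the later hours, or without siFBL library 2 of 6, 12 or 24 h. It was also lost with summed counts (adjusted p = 0.328) and when only the siFBL and siCTRL libraries of these hours were fitted (0.0646). With siNOP56 NOTCH1 lay at 0.19 (edgeR adjusted p = 0.522), and siFBL minus siNOP56 was 0.38 (0.228).

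In C4-2 cells NOTCH1 stood at 52.4 and 54.8 CPM with siCTRL at 0 h and at 52.2 and 109 in siFBL libraries A and B. As for NOTCH3, on the scaled values library A was level with siCTRL and library B about as far above it. The 0 h difference of 0.59 (SE 0.338) was not called (edgeR adjusted p = 0.295) and was −0.042 without library B. At 3, 6 and 12 h siCTRL held 31.5 and 40.5, 26.8 and 23.0, and 17.7 and 20.0 CPM, against 36.9 and 73.2, 30.1 and 52.1, and 22.9 and 30.2 with siFBL. At 6 and 12 h the groups did not overlap, and at 3 h they did. The later-hour difference was 0.61 (SE 0.196, edgeR adjusted p = 0.0247). It was not called without siFBL library B of 3, 6 or 12 h, without siCTRL library A of 3 h or 12 h or library B of 6 h, or with summed counts (adjusted p = 0.173).

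NOTCH2, a receptor with wide expression in adult tissue, was higher with siFBL in HEK293T cells at later hours. At 0 h it stood at 175 and 174 CPM with siCTRL, 213 and 239 with siFBL and 188 and 205 with siNOP56. At 6 h siCTRL held 105 and 113 against 139 and 201 with siFBL, at 12 h 59.6 and 69.3 against 79.1 and 154, and at 24 h 35.9 and 41.2 against 44.0 and 86.5. Both siFBL libraries lay above both siCTRL libraries at each hour, library 2 by more. The later-hour difference was 0.75 (SE 0.195, edgeR adjusted p = 0.00609) and stayed called in 24 of 24 fits without 1 library, but not with summed counts (adjusted p = 0.197). At 0 h it was 0.38 (SE 0.333, adjusted p = 0.598).

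The NOTCH2 libraries of siNOP56 straddled those of siCTRL at 6, 12 and 24 h, and the difference was 0.18 (SE 0.194, edgeR adjusted p = 0.521). Compared directly, siFBL minus siNOP56 was 0.57 at later hours (SE 0.194, edgeR adjusted p = 0.0702), which was called by DESeq2 (0.0380), without the filter on low counts (0.0378) and with a replicate block (0.00868), but not with summed counts (0.753). In C4-2 cells NOTCH2 was 85.3 and 90.1 CPM with siCTRL at 0 h and 63.2 and 79.2 with siFBL (−0.30, SE 0.183, edgeR adjusted p = 0.321). Over the later hours its difference was −0.02 (SE 0.106, adjusted p = 0.893), and 0.048 with DESeq2's size factors, so its sign changed with the scaling.

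JAG1, a ligand for all 3 receptors, was too scarce in HEK293T cells for small differences to be seen. It had 46 to 89 counts per library at 0 h and 3 to 28 at later hours, where it stood at 0.185 to 1.57 CPM. Over the later hours siFBL lay at −0.63 (SE 0.269, edgeR adjusted p = 0.0723) and siNOP56 at −0.43 (SE 0.256, adjusted p = 0.223). In C4-2 cells it stood at 54.6 and 56.1 CPM with siCTRL and 68.9 and 54.4 with siFBL at 0 h. Later, library A of siFBL held 45.4, 30.3 and 18.2 CPM at 3, 6 and 12 h, above siCTRL (34.0 to 35.7, 13.9 to 16.4 and 8.14 to 8.19). Library B held 27.5, 17.3 and 8.83 CPM, below siCTRL at 3 h and just above it afterwards. Here library A was the high one, unlike for NOTCH1 and NOTCH3. The difference of 0.48 (SE 0.179, edgeR adjusted p = 0.0479) was lost in 13 of 16 fits without 1 library and kept without siFBL library B of 3, 6 or 12 h. With summed counts the adjusted p was 0.454.

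JAG2, the second Jagged ligand, was lower with siFBL in C4-2 cells at later hours. The siCTRL libraries held 111 and 116 CPM at 3 h, 87.0 and 91.4 at 6 h and 59.3 and 64.4 at 12 h, against 85.2 and 91.2, 80.1 and 72.2, and 54.7 and 36.4 with siFBL. At each of these hours both siFBL libraries lay below both siCTRL libraries. The difference was −0.34 (SE 0.104, edgeR adjusted p = 0.0180), lost without siCTRL library B of 12 h and with summed counts (0.0576). At 0 h the groups overlapped (134 and 110 against 95.2 and 124 CPM).

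In HEK293T cells JAG2 stood at 51.8 and 53.0 CPM with siCTRL, 42.5 and 48.3 with siFBL and 45.3 and 39.1 with siNOP56 at 0 h. The later-hour difference was −0.27 with siFBL (SE 0.132, edgeR adjusted p = 0.112). With siNOP56 it was −0.38 (SE 0.132, adjusted p = 0.0445). The latter was lost in 15 of the 24 fits without 1 library, among them each one without a later library of siCTRL or a later library 2 of siNOP56, and with summed counts (0.472).

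Of the 5 members, then, 3 were called with siFBL at later hours in HEK293T (2 higher and 1 lower, where 21.1% of all genes were called higher and 18.6% lower). The lower 1 was NOTCH3, whose HEK293T values are not independent of the choice. In C4-2 cells 4 were called (3 higher and 1 lower, where 12.7% were called higher and 21.9% lower). None of these calls, in either line, was kept with summed counts. At 0 h none of the 4 members that the choice did not use was called in HEK293T with siFBL (1.74% of genes) or siNOP56 (0.187%), and none of 5 in C4-2. The members share the control libraries within a course, so they are not independent of each other.

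Over the hours NOTCH3 moved against the other members. With siCTRL in HEK293T cells its mean at 24 h was 205% of that at 0 h, against 58.3% for JAG2, 33.3% for NOTCH1, 22.1% for NOTCH2 and 21.4% for JAG1. In C4-2 cells at 12 h the same percentages were 132% for NOTCH3, 50.7% for JAG2, 36.2% for NOTCH2, 35.2% for NOTCH1 and 14.7% for JAG1. In both lines NOTCH3 was thus the only one of the 5 whose scaled CPM with siCTRL were higher at the last hour than at 0 h. These CPM are scaled by factors that fell over the hours. The percentages therefore describe NOTCH3 relative to most mRNAs and not its share of all counts.

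Slopes against hour within 1 siRNA, added after seeing the data, gave NOTCH3 a value of 0.04 log2 per hour with siCTRL in HEK293T (SE 0.00949, edgeR adjusted p = 0.00282). The slopes of NOTCH2 (−0.09), JAG1 (−0.10), NOTCH1 (−0.06) and JAG2 (−0.03) were called negative, in a course where 21.8% of genes were called higher and 28.3% lower. The calls of JAG1 and JAG2 were lost without either siCTRL library of 0 h. With siFBL and with siNOP56 the NOTCH3 slope was 0.02, given with no test because the 0 h libraries of the choice enter it, while the other 4 were again called negative in both. Here 51.6% and 50.8% of genes were called in either direction. The slope of NOTCH1 with siFBL lost its call without siFBL library 1 or 2 of 0 h or library 1 of 24 h. That of JAG1 with siNOP56 did so without either 0 h library of siNOP56 and with DESeq2 (0.0651), and that of JAG2 without siNOP56 library 1 of 0 h.

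In C4-2 cells the NOTCH3 slope was 0.04 in both siCTRL (SE 0.0256, edgeR adjusted p = 0.321) and siFBL (SE 0.0259, 0.317). The other 4 were called negative in both, JAG1 with the steepest values of −0.24 and −0.18. Among all genes 34.1% and 35.1% were called. No difference in slope between siRNAs was called for the 4 members other than NOTCH3 in HEK293T or for any of the 5 in C4-2, and none of these had an unadjusted p under 0.05. Over all genes edgeR called 0 for siFBL and 0 for siNOP56 against siCTRL (449 and 197 at an unadjusted p under 0.05, and 6 and 3 by DESeq2), 1 gene (siFBL against siNOP56, 0.00669%) and 1 gene (C4-2, 0.00427%). For NOTCH3 the slope difference between siFBL and siCTRL was 0.00 log2 per hour in C4-2 (SE 0.0367), and in HEK293T it lay at −0.02 (SE 0.0137), with no test. A p that misses the threshold does not show equal slopes.

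The ratio of NOTCH3 to NOTCH2 counts needs no scaling between libraries. In HEK293T it was 0.413 and 0.436 with siCTRL at 0 h and 4.15 and 3.75 at 24 h. With siFBL it was 0.139 and 0.112 at 0 h and 0.997 and 0.491 at 24 h, and with siNOP56 0.332 and 0.296, then 2.78 and 1.60. Every course rose, and at every hour both siFBL libraries lay below both siCTRL libraries. In C4-2 the ratio was 1.28 in both siCTRL libraries at 0 h and 4.94 and 4.44 at 12 h, against 1.68 and 2.88, then 4.41 and 10.2, with siFBL. There the siFBL libraries lay above those of siCTRL until 6 h and straddled them at 12 h.

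**Figure D3:**
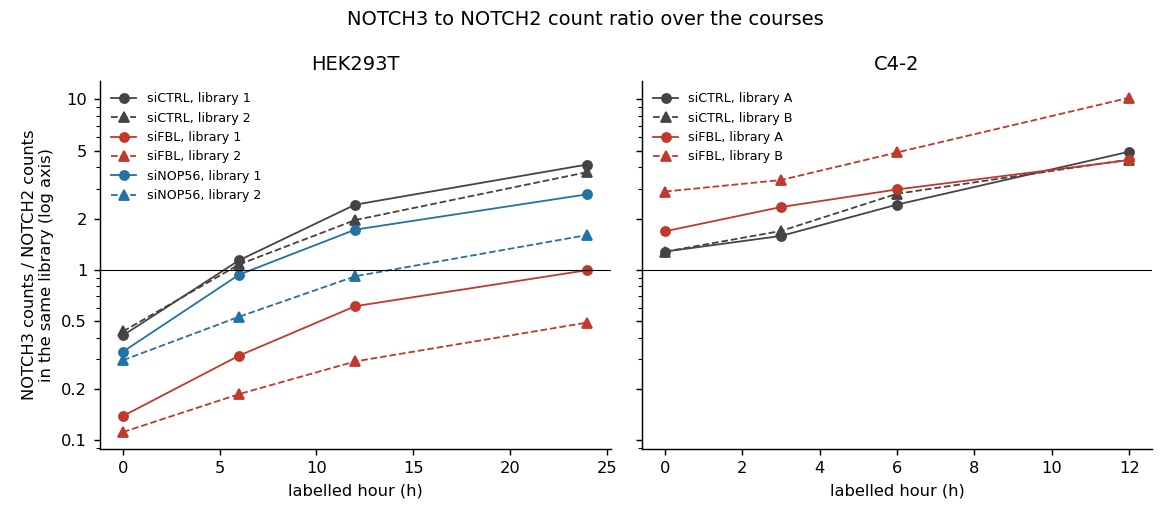
Ratio of NOTCH3 to NOTCH2 counts (log axis) against hours in HEK293T and C4-2, with 1 point per library and hour, a line joining the hours of each library number and a horizontal line at equal counts. All courses climb, the siFBL points lie lowest in HEK293T, and siFBL library B reaches 10.2 in C4-2.

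FBL immunoprecipitation from C4-2 cells recovered all 5 mRNAs above input when scaled by trimmed means. NOTCH1 had 1320 and 1357 counts in input and 3744 and 3715 in RIP, a log2 difference of 1.90 (SE 0.0639, edgeR adjusted p = 4.67e-22). NOTCH2 followed at 1.41 (1411 and 1446 counts against 2755 and 2908) and NOTCH3 at 1.35 (2146 and 2023 against 3912 and 4036). JAG1 lay at 1.09 (693 and 730 against 1076 and 1194) and JAG2 at 1.06 (3365 and 3230 against 5079 and 5186). The replicates of each arm agreed closely, and the arms did not overlap for any member. All 5 were called higher, where 39.9% of genes were called higher and 82.9% in either direction.

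These RIP values depend on scaling and go with length. On plain CPM, without the trimmed-mean factors, the log2 ratios were 0.96 for NOTCH1, 0.46 for NOTCH2, 0.41 for NOTCH3, 0.15 for JAG1 and 0.12 for JAG2, in the same order. Transcripts of the receptors are 8666 to 11389 bases long and those of the ligands 5940 and 5835. Among genes with a transcript between 0.8 and 1.25 times as long as that of NOTCH1, 76.6% were called higher in RIP and the median was 1.14, with 69.2% of them below NOTCH1. For NOTCH2 the median of like-length genes was 1.36, with 51.1% below it, and for NOTCH3 1.10, with 57.2% below it. For the ligands the medians were 0.60 (JAG1) and 0.57 (JAG2), with 66.8% and 66.7% below them. Each member lay above the median of its length class and under its upper quartile. An immunoprecipitation with a control antibody was not analysed here.

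**Figure D4:**
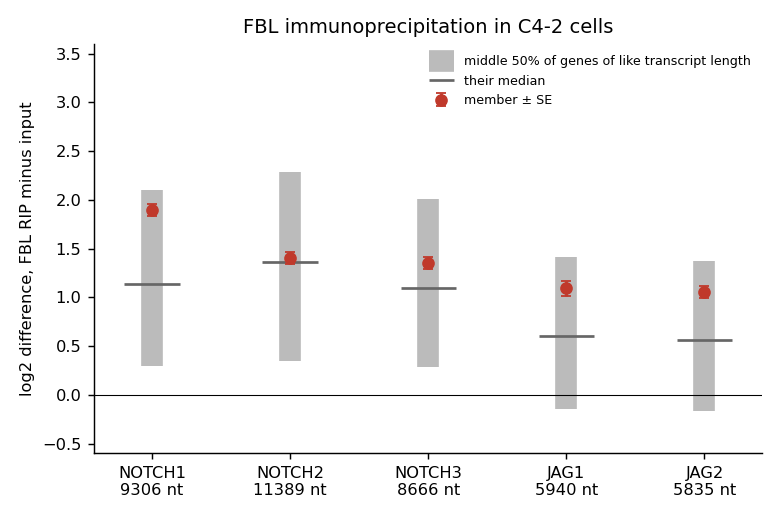
Log2 difference of RIP minus input for each member (red points, bars of 1 SE), over a grey box from the lower to the upper quartile of genes of like transcript length with a line at their median. NOTCH1 is highest at 1.90, and every point lies above its median and inside its box.

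SLAM-seq counted reads at 3′ ends in C4-2 cells, and none of the 5 members was called between siFBL and siCTRL in total reads by edgeR, where 1.05% of genes were called (138 genes, and 791 with a term per pair of same-numbered libraries). At an unadjusted p under 0.05 only JAG2 passed (0.0218), and DESeq2 and the pair term called none of the 5 either. Over 8 libraries per siRNA NOTCH3 ran from 6.26 to 35.1 reads per M mapped reads (median 12.2) with siCTRL and from 9.28 to 35.9 (median 13.3) with siFBL, so the groups overlapped over most of their range. The log2 difference was 0.18 (SE 0.387, edgeR adjusted p = 0.883). This fit holds terms for the labelled hour, which join libraries whose file headers give different hours. The 4 libraries labelled 0 h and 12 h of replicate 2, whose file headers give 24 h, held 35.0 to 35.9 in both siRNAs, and the other 12 held 6.26 to 15.99. JAG2 was the most abundant member, at 65.4 to 81.0 with siCTRL and 77.5 to 95.7 with siFBL, a difference of 0.23 (SE 0.0918, edgeR adjusted p = 0.238). It was higher with siFBL in 8 of 8 same-numbered pairs, against 7 for NOTCH3, 6 for NOTCH1, 3 for JAG1 and 1 for NOTCH2, while in the C4-2 course JAG2 was called lower with siFBL. The difference between these assays was not tested. NOTCH1 lay at 0.24 (SE 0.208), JAG1 at 0.32 (SE 0.237) and NOTCH2 at −0.11 (SE 0.135), with adjusted p of 0.643, 0.568 and 0.773.

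The SLAM-seq libraries were not compared over hours. Label and file header named different hours for 12 of 16 libraries and the same siRNA for all 16. The share of all reads with T>C changes was higher at labelled 0 h than at labelled 24 h in replicate 1 of both siRNAs (56.9% against 23.1%, and 53.9% against 20.0%) and lower in replicate 2 (11.0% against 35.5%, and 5.14% against 31.4%). By the hour in the headers the share fell from 0 to 6, 12 and 24 h in both siRNAs, with 56.8 to 56.9%, 34.9 to 35.5%, 22.8 to 23.1% and 11.0% (both libraries) in siCTRL and 53.6 to 53.9%, 31.1 to 31.4%, 19.6 to 20.0% and 5.14 to 5.32% in siFBL. The order of the shares thus follows the headers and not the labels. Groups are taken from the labels here, so no comparison over hours is given, and single libraries are described with Wilson 95% intervals, which cover counting error only.

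Each of the 5 members exceeded the share of its library in 4 of 16 libraries. For NOTCH1, NOTCH2, JAG1 and JAG2 these were the libraries whose file headers give 0 h. NOTCH3 differed in 2 libraries. In siFBL labelled 12 h, replicate 1 (header 0 h), it lay below the library (48.8% against 53.6%). In siFBL labelled 6 h, replicate 2 (header 6 h), it lay above (36.0% against 31.1%). Its Wilson intervals include the library share in both. For NOTCH3 the share ran from 0.473% (0.202 to 1.10, 1058 reads) in siCTRL labelled 12 h, replicate 2, to 77.4% (72.7 to 81.5, 341 reads) in siCTRL labelled 12 h, replicate 1. These 2 libraries carry the same label and lie at opposite ends, and their headers give 24 h and 0 h. NOTCH3 in siCTRL labelled 0 h, replicate 1, was at 57.5% (49.6 to 65.1, 153 reads), where the library as a whole was at 56.9%. JAG1 ran from 0 of 156 reads (0 to 2.40%) to 84.6% (78.7 to 89.1, 182 reads), the widest range of the 5.

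**Figure D5:**
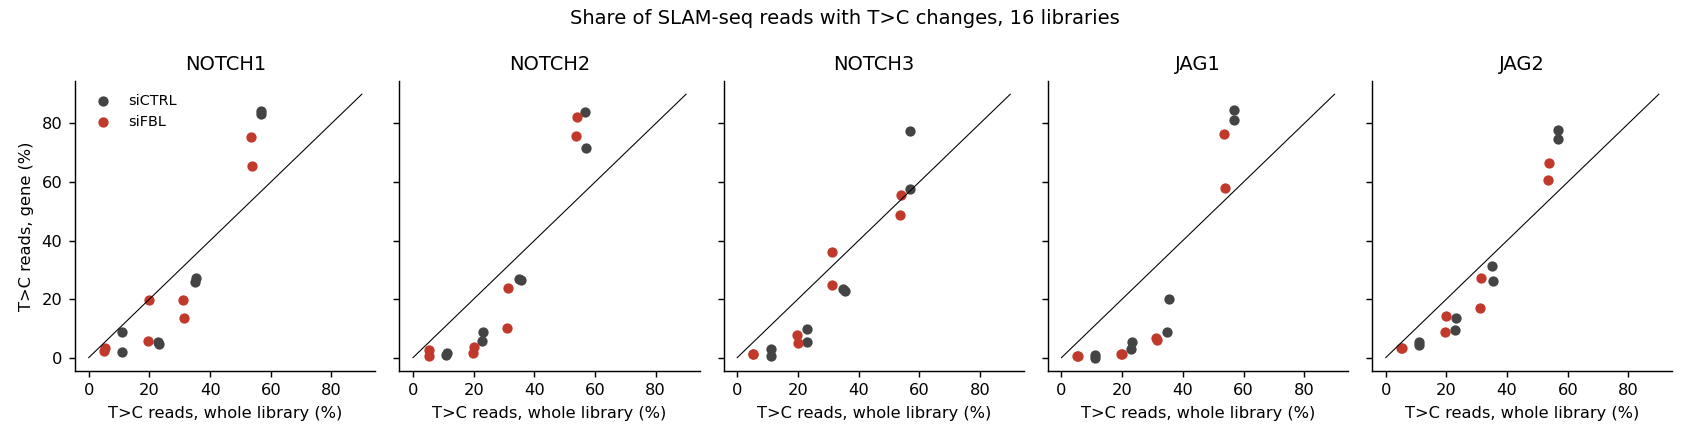
Percent of reads with T>C changes for each member (y axis) against the percent over the whole library (x axis), with 1 point per SLAM-seq library, coloured by siRNA, and a line of equality. Most points lie under the line, 12 of 16 for each member.

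The other genes of the pathway were taken from a list of 49 by role, of which 48 were tested in HEK293T and 49 in C4-2. With siFBL at later hours in HEK293T 16 were higher and 6 lower, where 21.1% and 18.6% of all genes were, with a median log2 difference of 0.20 against 0.01 over all genes. None of them was called with summed counts. Among those with the largest changes were NEURL1B (−1.92, SE 0.289, edgeR adjusted p = 9.69e-05) and NEURL1 (−0.81), ubiquitin ligases that act on Notch ligands, and HEY2 (1.65, SE 0.353), a repressor among the targets. SNW1 (0.80), a coregulator bound to RBPJ complexes, was also higher, and APH1B (−0.87), a subunit of the γ-secretase that cuts the receptor, was lower. APH1B lost its call in 2 of the fits without 1 library. At 0 h 2 of 48 were called, where 1.74% of all genes were, PSEN2 (0.68), the catalytic γ-secretase subunit, and POGLUT1 (0.56), which adds glucose to receptors. Both lost the call when only these libraries were fitted, and in 4 (PSEN2) and 19 (POGLUT1) of 24 fits without 1 library.

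With siNOP56 at later hours in HEK293T 14 of 48 pathway genes were higher and 5 lower, where 27% of all genes were called in either direction. None was called with summed counts. Among them were NEURL1B (−1.68, SE 0.284, edgeR adjusted p = 0.000611), SNW1 (0.64), PSEN2 (0.64) and POGLUT1 (0.56), and MIB2 (0.72), another ligase of the ligands. Between siFBL and siNOP56 3 were higher and 1 lower, among them HES4 (0.60), ADAM17 (0.50) and MAML3 (−0.84), where 10.8% of all genes were called. None of them was called with summed counts. ADAM17 sheds the receptor's outer part and MAML3 is a Mastermind coactivator. MAML3 lost its call in 12 of 24 fits without 1 library. The siFBL and siNOP56 comparisons share the siCTRL libraries.

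In C4-2 cells 10 of 49 pathway genes were higher and 13 lower at later hours, where 12.7% and 21.9% of all genes were, and 7 were called with summed counts. SPEN (−1.41, SE 0.152, edgeR adjusted p = 3.7e-06), a corepressor at RBPJ, EP300 (−1.10), an acetyltransferase coactivator, LFNG (−1.09), a sugar transferase that tunes ligand choice, and the target HES4 (−0.72) were lower in every fit without 1 library. DLL1 (0.80), a Delta ligand, was higher and lost its call in 2 such fits and with summed counts. At 0 h 1 was higher and 4 lower, where 8.48% of all genes were called, with SPEN at −0.91, NEURL1B at −0.90, HES4 at −0.79, APH1A at −0.49 and DTX3 at 0.84. Of 16 fits without 1 library, these 0 h calls were lost in 10 for SPEN, 3 for NEURL1B, 8 for APH1A and 11 for DTX3, and HES4 was called in all. In RIP 16 of 43 pathway genes were higher and 20 lower, close to the 39.9% of all genes called higher and 82.9% called in either direction, from EP300 (3.04) and SPEN (2.94) to DLL3 (−2.76) and PSENEN (−2.61). In SLAM-seq 0 of 37 were called by edgeR, 5 had an unadjusted p under 0.05, and 2 were called with the pair term.

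HES1, a repressor that Notch switches on, was lost early in both courses. It stood at 34.6 and 36.7 CPM with siCTRL at 0 h in HEK293T and at 1.96 and 2.32 at 6 h. In C4-2 it went from 44.1 and 47.2 to 1.22 and 2.19 at 3 h. With siFBL HES1 lay at 0.44 in HEK293T (SE 0.25, edgeR adjusted p = 0.176) and at −0.51 in C4-2 (SE 0.200, adjusted p = 0.0591, 0.0473 with a replicate block and 0.205 with summed counts) over the later hours. With siNOP56 it was 0.75 higher (SE 0.245, adjusted p = 0.0330), a call lost in 8 fits without 1 library, with only these libraries (0.0780) and with summed counts. HEY1 was abundant in HEK293T (130 and 132 CPM at 0 h) and near 1 CPM in C4-2, and was not called at 0 h or later with either siRNA.

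NRARP, a feedback inhibitor of the receptor's intracellular part, was lower with siFBL in the C4-2 course. At 3 h siCTRL held 12.9 and 15.4 CPM against 3.38 and 9.69 with siFBL, and at 6 h 3.35 and 3.48 against 0.906 and 1.74. The groups did not overlap, and the later-hour difference was −1.29 (SE 0.261, edgeR adjusted p = 0.00124, and 0.114 with summed counts). In SLAM-seq of C4-2 cells NRARP total reads lay the other way, at 0.93 with siFBL (SE 0.390, edgeR adjusted p = 0.270). The difference between these 2 assays was not tested. In HEK293T cells the 2 siFBL libraries stood far apart, at 50.1 and 313 CPM at 0 h against 65.6 and 68.2 with siCTRL. Library 1 lay below siCTRL and library 2 above it at every hour, and the later-hour difference of 0.76 (SE 0.484) was not called (edgeR adjusted p = 0.224). Library 2 is also the siFBL library in which NOTCH1 and NOTCH2 lay further above siCTRL at later hours.

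The genes whose group means ran most like each member were ranked by Pearson's r on log2(CPM + 0.5), over 12 groups in HEK293T and 8 in C4-2, among genes at 5 CPM or more. The groups share libraries, depth and a common decline over the hours, and r is a description. In HEK293T NOTCH3 ran most like NSG1 (r = 0.983), ADAMTS10 (0.976), AGAP2 (0.974), GYS1 (0.972) and HIP1 (0.972). Against NOTCH1 and NOTCH2 its r was −0.672 and −0.646, while those 2 had an r of 0.949 with each other. NOTCH1 ran most like CHPF2 (0.989), NOTCH2 like PRRC2A (0.995) and JAG2 like TACC2 (0.980), and JAG1 was below the level needed. In C4-2 the nearest genes were MAPK8IP2 for NOTCH3, RRAGC for NOTCH1, SMAD4 for NOTCH2, NAA30 for JAG1 and DDX6 for JAG2.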

How the data were processed

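The members and the pathway and marker lists were chosen with earlier results of these data known. For RIP and both time courses the authors deposited whole-number read counts per gene. TopHat2 2.1.1 and HOMER are named only for the RIP samples, per the submitters' processing notes, and hg38, GRCh38.p13 and hg19 are named without a role, so the build of these tables is not given in the sources used; nor is the use of strand. For SLAM-seq the authors deposited counts of reads and of T>C reads per 3′ UTR interval on hg38, and a CPM-like score, used here only to recover mapped reads. Where a gene had several intervals, the one with the highest read sum was used.

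Counts were fitted on whole tables with edgeR 4.0.16 in R 4.3.3. Each fit used trimmed-mean scaling, the default filter on low counts and the quasi-likelihood test with Benjamini-Hochberg adjustment at 0.05. The time courses had 1 mean per siRNA and hour, or an intercept and a slope per siRNA, and RIP 1 mean per arm. SLAM-seq had a term for siRNA and terms for the labelled hour, not the hour in the headers. The contrast over later hours averages the contrasts of the single hours. Alternatives were DESeq2 1.42.0, its size factors in edgeR, no filter, a replicate block, only the libraries compared, leaving out each library, and, added after seeing the data, later hours summed per library number. The slopes within 1 siRNA were also added. The fits, except that of both lines together, were tested on simulated counts drawn independently for each library. This does not cover the shared deviations of same-numbered libraries over the hours. 3′ UTR sequences come from GRCh38 and the GENCODE annotation, with 1 transcript per gene.

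Pathway genes were named by rule: the 6 called genes of the list with the largest change and a mean of at least 1 CPM. A gene that this rule names is not reported here. SLAM-seq replicate numbers paired the samples, since same-numbered siCTRL and siFBL libraries deviated together at all 4 hours (r = 0.151 to 0.309 across genes). These pairs also share the hour in the file headers. No such pairing was seen between siRNAs in HEK293T (−0.0170 to 0.101). Counting error alone is covered by the intervals given.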

Additional observations from a re-analysis of the deposited data

Results flagged for a closer look

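The effect of siFBL on NOTCH3, averaged over 6 and 12 h, differed between the 2 lines by an interaction test. It was 2.45 higher on the log2 scale in C4-2 than in HEK293T cells (SE 0.293, edgeR adjusted p = 6.79e-07). With 3 h and 24 h included, both siFBL libraries lay below siCTRL at each later hour in HEK293T and above it at each later hour in C4-2. These are 2 library numbers per line followed over the hours, and the hours do not count as replicates. Within either line siFBL minus siCTRL was not called with summed counts. The 2 C4-2 siFBL libraries differed in size, at 123 to 170 CPM in library A and 223 to 278 in library B. The HEK293T side is not independent of the choice of NOTCH3, since same-numbered siFBL libraries deviated together from 0 h on.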

How the results depend on the processing

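Counts of called genes moved by more than 1.5 times in these settings, with the count as reported in parentheses. DESeq2 called 778 genes for siFBL at 0 h in HEK293T (260), 213 for siNOP56 at 0 h (28), 19 between them at 0 h (3), 3980 in C4-2 at 0 h (1988), 631 in SLAM-seq (138), and in slope 6 for siFBL (0), 3 for siNOP56 (0), 0 between them (1) and 18 in C4-2 (1). The replicate block gave 861 for siFBL and 140 for siNOP56 at 0 h, 2511 between them later (1611), and 0 in slope between them and in C4-2. Numbers do not pair these samples, and no member other than NOTCH2 (siFBL against siNOP56, adjusted p = 0.00868) gained or lost a call in HEK293T level contrasts with the block. Crossed numbers at 0 h in C4-2 gave 3722, with NOTCH1 among them. A block per labelled hour and number in SLAM-seq gave 791 and called no member. Fitting only the libraries compared gave 1, 0 and, between them later, 64. Other size factors gave 18 for siNOP56 at 0 h and 0 in slope in C4-2. Without the filter SLAM-seq gave 596, and slope 0 between siFBL and siNOP56 and 0 in C4-2. Sums over later hours gave 4 for siFBL (5932), 0 for siNOP56 (4034), 1 between them, 3587 in C4-2 (8100) and 1710 between lines (4725); fewer samples enter there.

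Leaving out 1 library gave 11 to 363 for siFBL and 0 to 33 for siNOP56 at 0 h, 2 to 5 between them at 0 h and 814 to 2440 later, 0 to 2 and 0 to 1 in slope (siFBL against siCTRL, against siNOP56), 633 to 3051 and in slope 0 to 10 in C4-2, 806 to 1947 between lines at 0 h (1321) and 80 to 148 in SLAM-seq. The cause of these moves was not tested.

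Among the differences given for members, signs changed only where nothing was called. NOTCH2 in C4-2 later was 0.048 with other size factors, 0.048 with DESeq2 and 0.033 with only these libraries. Leaving out 1 library it ran from −0.11 to 0.055, NOTCH1 and NOTCH3 in C4-2 at 0 h from −0.042 to 1.022 and from −0.081 to 1.021, JAG2 between lines later from −0.13 to 0.14, and NOTCH3 in SLAM-seq from −0.014 to 0.44.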
